A study of Mus musculus with 15 samples.

Results

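The comparison described here set macrophages of the mouse dura at postnatal day 21 (P21) against the same sorted cells at postnatal day 10 (P10). Its members are the 6 libraries that the labels place at these ages, 3 at P10 and 3 at P21, of 15 in the series. The libraries were bulk RNA-seq of dural macrophages sorted as CD206+. All mice were C57BL/6J and carried 1 Cx3cr1 allele replaced by GFP (genotype Cx3cr1GFP/wt), a change that all ages share, and none was treated. The remaining libraries came from the embryonic age E14.5, P3 and P56, with 3 libraries each. The labels give 1 sequencing project, Project_S232, for E14.5, P3, P10 and P21, and another, Project_S276, for P56. Laboratory mice are usually weaned at about the older of the ages compared, but the labels give ages only and do not say whether the P21 mice had left their mothers.

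The dura is the outer membrane around the brain, and its resident macrophages are border-associated macrophages that take up material from the tissue, clear dying cells and can present antigen to T cells. MHC class II molecules carry peptides from ingested protein to CD4 T cells. Glucocorticoid hormones act through a nuclear receptor that changes the transcription of its target genes, and interferons act on theirs through STAT and IRF factors.

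Total counts were 19029049 to 30614583 per library at P10 and 20997857 to 22678913 at P21, and 11254 to 13571 genes had at least 10 counts. Pearson's r between log2 levels was 0.9 to 0.905 among the P10 libraries and 0.843 to 0.896 among the P21 libraries. P21 replicate 2 stood apart: it had the fewest detected genes (11254) and sat at 188 on the first principal component of the 6 libraries, where the other 5 lay between -55.5 and -12.8. P21 replicate 1 stood apart on the second component, at -135.7 against -11.1 to 46.9 for the others. Counts with and without each library are given below. All 6 libraries held 2733 to 5562 counts of Y-linked genes and at most 1 count of Xist. Levels of single genes are CPM (counts scaled to a common library size) corrected by TMM, a factor that evens out differences in library composition, and are given for replicates 1, 2 and 3 in that order or as mean ± SD with n = 3 per age. A log2 change is P21 minus P10 with its SE from the edgeR fit, and a gene was called at an adjusted p under 0.05. The labels name separate libraries and do not say whether each came from 1 mouse or a pool, so p-values measure spread between libraries. That spread was estimated in 1 fit to all 15 libraries, not from the 6 compared alone. In bulk RNA, fewer cells of a type and less RNA per cell cannot be told apart.

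The defining genes of the sorted cell were present in every library at both ages. Mrc1, which encodes CD206, had 1639.8, 2119 and 2409 CPM at P10 and 2192, 2658 and 3469 at P21, and the ages overlapped (0.43 ± 0.26 SE, edgeR adjusted p = 0.499). Csf1r, the receptor for the growth factor that macrophages need, had 3198, 3622 and 4402 and then 5487, 5615 and 6481 CPM and was not called (0.65, adjusted p = 0.266). Adgre1, which encodes F4/80, had 1419.8 ± 124 and 2092 ± 33.2 CPM (0.56, adjusted p = 0.0705). Its 3 P21 libraries lay above the 3 of P10 without passing the test. Of 21 tested macrophage core genes, 2 rose, against 0.96% of all tested genes, and none fell. Their median log2 change was 0.29, against -0.01 for all 14683 tested genes. The rises numbered 0, 0 and 2 without P10 replicates 1, 2 and 3 and 0, 0 and 0 without P21 replicates 1, 2 and 3.

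Between the ages 168 genes changed, 1.14% of those tested: 141 rose (0.96%) and 27 fell (0.184%). An unadjusted p under 0.05 in edgeR was reached by 2145 of the 14683 tested genes. The median log2 change was 1.33 among the genes that rose and -1.15 among those that fell. Of the genes that rose, 103 reached a mean of 100 CPM at P21. The genes that rose made up 5.84% to 6.26% of all counts at P10 and 10.6% to 10.8% at P21, and those that fell made up 0.462% to 0.507% and then 0.213% to 0.218%. Every called gene had 3 libraries of one age above the 3 of the other, which also held for 17.7% of all tested genes (8.8% with P21 higher and 8.92% with P21 lower). The plot of change against level shows the calls among all tested genes. Scaling by library totals alone called 69 higher and 75 lower, with a median log2 change of -0.18 over all genes, so the share of calls that were higher was 47.9% on that scale against 83.9%. The count of calls was 30, 45 and 85 without P10 replicates 1, 2 and 3, and 101, 69 and 171 without P21 replicates 1, 2 and 3. Without P21 replicate 3 the share of calls that were higher was 55.6%.

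**Figure D1:**
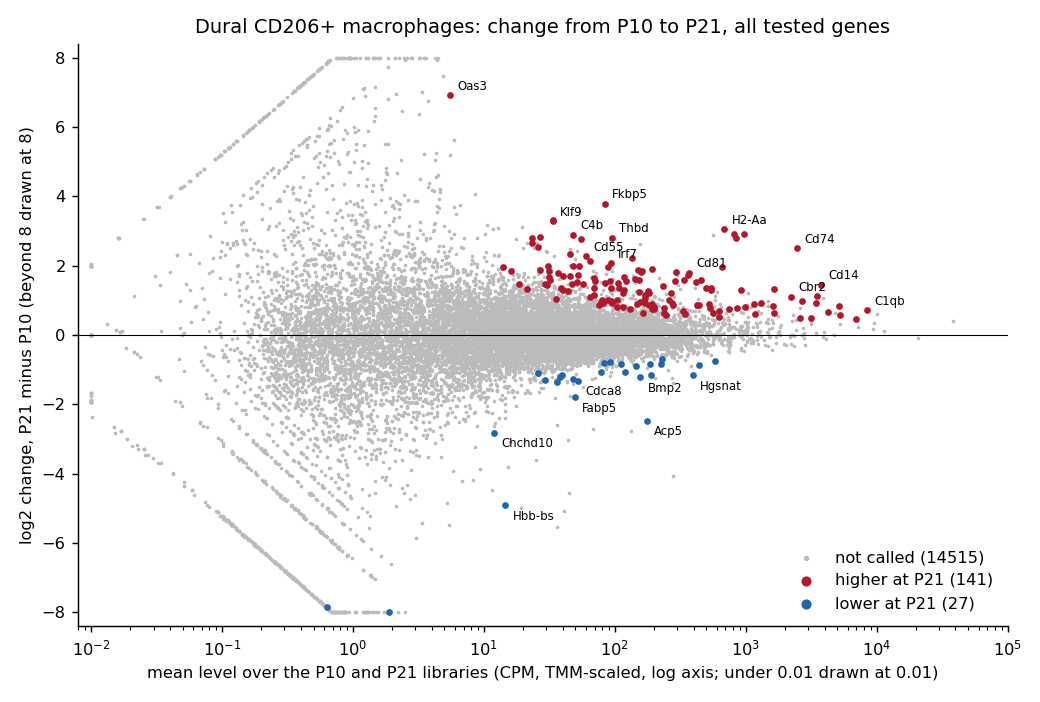
Log2 change from P10 to P21 (vertical axis) against the mean level over the 6 libraries in TMM-scaled CPM (horizontal log axis), 1 point per tested gene. The 141 genes that rose (red) and the 27 that fell (blue) lie mostly above 10 CPM, while the widest changes among uncalled genes (grey) are at low levels.

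The genes ranked here were called, had at least 20 CPM at the higher age and did not overlap between the ages. The largest rises were those of Fkbp5, Hspa1b, Klf9, H2-Aa, Tsc22d3, Vcam1, C4b, Oasl1, H2-Ab1, Thbd, Ifit3b and Hspa1a. They cover steroid response, heat shock, antigen presentation, adhesion, complement, interferon response and coagulation control. The largest falls were those of Hbb-bs, Chchd10, Acp5, Fabp5, Sox4, Cdca8, Ptcd3, Cks1b, Bmp2, Inka1, Hgsnat and Gpr183. The plot of these 24 genes shows the libraries one by one, and the groups are taken in turn below.

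**Figure D2:**
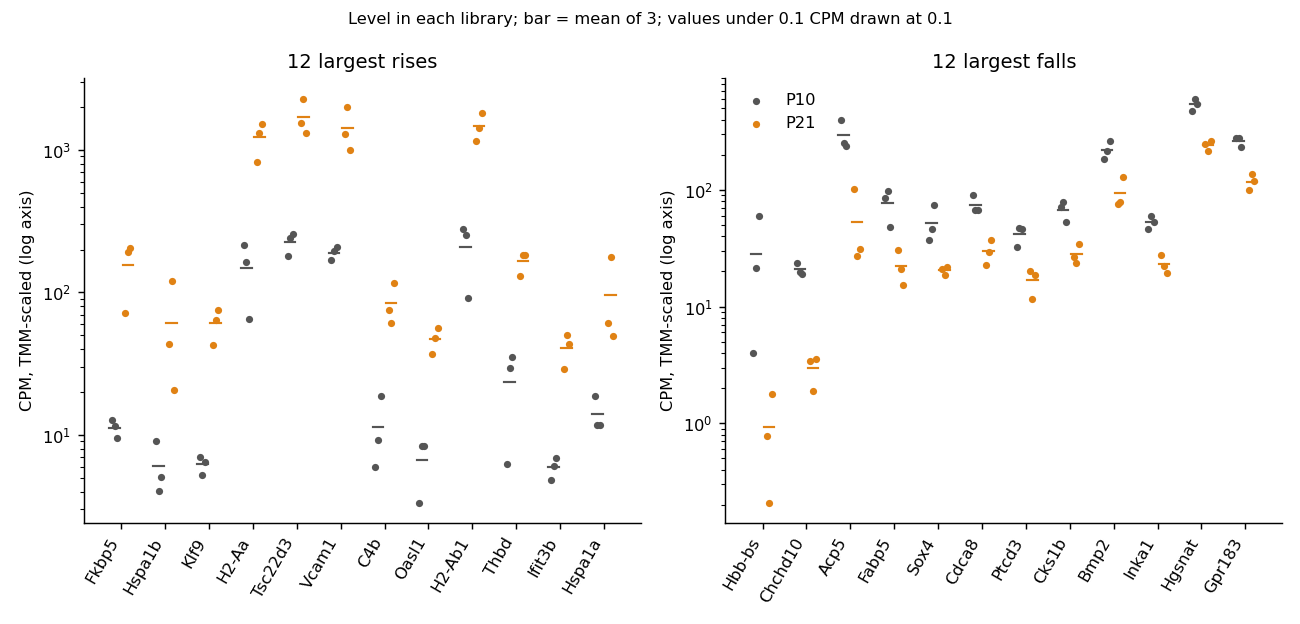
TMM-scaled CPM (log axis) of the 12 genes with the largest rise (left) and the 12 with the largest fall (right) in each P10 library (grey) and each P21 library (orange), with a bar at the mean of 3. The 24 genes were picked on the condition that the P10 and P21 points do not overlap.

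Glucocorticoid-responsive genes were among the strongest rises. Tsc22d3, which encodes the anti-inflammatory leucine zipper protein GILZ, had 180.2, 240.4 and 258 CPM at P10 and 1543, 2290.0 and 1306 at P21, a 7.57-fold difference. Fkbp5, a co-chaperone that dampens the glucocorticoid receptor, had 12.8, 11.5 and 9.46 CPM and then 71.4, 193 and 204 (3.79 ± 0.64 SE, edgeR adjusted p = 0.0142). P21 replicate 1 was the lowest of its age for Fkbp5, the ages did not overlap, and the fitted difference was 13.8-fold. The call of Fkbp5 was lost without P10 replicate 1, 2 or 3 and without the filter. limma voom did not call it either (limma voom adjusted p = 0.0971). Errfi1, an inhibitor of EGF receptor signalling, had 60.6, 83.1 and 67.1 and then 201, 289 and 256 CPM, with no overlap (1.82 ± 0.24 SE, edgeR adjusted p = 0.00299). Klf9, a transcription factor induced by steroid and thyroid hormones, had 7.01, 5.21 and 6.51 and then 42.97, 64.3 and 74.8 CPM (3.28 ± 0.65 SE, edgeR adjusted p = 0.0309). Rgs2, a brake on G protein signalling, went the other way, with 674, 785 and 735 CPM at P10 and 367, 569 and 369 at P21 (-0.75 ± 0.16 SE, edgeR adjusted p = 0.0366). Of 20 tested members of this list 4 rose and 1 fell, against 0.96% and 0.184% of all tested genes. The median log2 change was 1.15, with 16 changes above 0 and 4 below. Pdk4 of this list had no count in any P21 library. Sgk1, a kinase gene (1.07, adjusted p = 0.0563), Cd163, the scavenger receptor for haemoglobin (1.23, adjusted p = 0.0943), and Per1, a clock gene (1.34, adjusted p = 0.212), were above their P10 levels without passing. The receptor itself, Nr3c1, had 159 ± 29.98 and 208 ± 16.1 CPM (0.39, adjusted p = 0.261), and none of the 9 tested genes for the receptor, its chaperones, coactivators and hormone-converting enzymes was called by edgeR, limma voom or DESeq2, with 1 at an unadjusted p under 0.05. The rises in the list numbered 2, 2 and 2 without P10 replicates 1, 2 and 3 and 4, 3 and 4 without P21 replicates 1, 2 and 3. No fall was called without P10 replicate 1, 2 or 3 or P21 replicate 1 or 3. The palindromic glucocorticoid response element, written GNACA and TGTNC around any 3 bases, was found on either strand in 3 of the 28 promoter windows of this list (10.7%; windows are defined with the class II genes), in none of the 148 windows of genes that rose and in 0.387% of all windows.

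MHC class II genes had a median log2 change of 1.49 over 15 tested members, the highest of the 41 pathway lists examined. H2-Aa and H2-Ab1 encode the alpha and beta chains of the class II molecule I-A. H2-Aa had 214, 163 and 64.97 CPM at P10 and 821, 1322 and 1525 at P21 (3.05 ± 0.66 SE, edgeR adjusted p = 0.0429), and H2-Ab1 had 278, 255 and 90.9 and then 1146, 1414 and 1830.4 (2.81 ± 0.59 SE, edgeR adjusted p = 0.0365). P10 replicate 3 was the lowest library for both chains, and no P10 library reached any P21 library. Cd74, the invariant chain that guides class II molecules to the endosome, had 927, 879 and 435 CPM and then 3541, 4575 and 4541. H2-DMa, a subunit of the complex that loads peptide, had 48.1, 62.8 and 54.7 and then 143, 155 and 168 CPM, with close replicates at both ages (1.49 ± 0.19 SE, edgeR adjusted p = 0.00206). Its partner H2-DMb1 had 45.7, 51.1 and 32.6 and then 92.4, 93.02 and 103 CPM (1.16 ± 0.23 SE, edgeR adjusted p = 0.032). H2-Eb1 had 134 ± 76.5 and 999 ± 328 CPM with a like difference but a wider error (2.90 ± 0.78 SE, edgeR adjusted p = 0.0968). Ifi30, a reductase that opens disulfide bonds of antigens in the lysosome, fell from 262, 314 and 293 to 148, 168 and 168 CPM (-0.84 ± 0.18 SE, edgeR adjusted p = 0.0374). In all, 5 of the 15 tested members rose and 1 fell, against 0.96% and 0.184% of all tested genes.

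Ciita, the master regulator of class II genes, was at 1.17, 0 and 0.102 CPM at P10 and 9.04, 2.76 and 11.7 at P21 and was not called (adjusted p = 0.303). Ctss, the protease that trims the invariant chain, had 1854 ± 122 and 2755 ± 276 CPM (0.57, adjusted p = 0.107). Leaving out any 1 of the 6 libraries left 2 members that rose, Cd74 and H2-DMa, and no fall. On library totals 2 members rose. Reads of H2 genes may be shared between near-identical copies, so values of single H2 genes are uncertain.

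Markers of other antigen-presenting cells were mixed. The 13 tested dendritic cell markers had a median log2 change of 1.56, with 8 changes above 0 and 5 below. That median was 0.74, 1.61 and 0.62 without P10 replicates 1, 2 and 3, 1.26, 0.73 and 0.49 without P21 replicates 1, 2 and 3, and 0.35 in a fit to the ages compared. Of the 13 markers 1 rose, against 0.96% of all tested genes. It was Kmo, an enzyme of tryptophan breakdown, with 26.6, 15.98 and 14.9 CPM and then 73.4, 62.6 and 92.2 (1.99 ± 0.29 SE, edgeR adjusted p = 0.00504). The summed level of that list was 324, 286 and 371 CPM of the total at P10 and 412, 368 and 586 at P21, and the ages overlapped. Zbtb46, a transcription factor of classical dendritic cells, had 28.7 ± 6.03 and 27.8 ± 0.326 CPM, and Flt3, their growth factor receptor, 0.557 ± 0.612 and 0.723 ± 1.17. Xcr1 and Clec9a had no count in any P21 library, while Cd209a had 18.3, 3.23 and 6.56 CPM at P10 and 22.5, 15.4 and 113 at P21. Of 13 tested monocyte markers 1 rose, against 0.96% of all tested genes. It was Ms4a4c (2.54 ± 0.41 SE, edgeR adjusted p = 0.0094), which lost its call without P10 replicate 2. Ccr2, the chemokine receptor of classical monocytes, had 45.1, 30.1 and 17.6 and then 69.5, 148 and 81.7 CPM (1.68, adjusted p = 0.278). The monocyte sum was 1009, 1033 and 1411 CPM of the total at P10 and 2256, 1741 and 1622 at P21, most of it from Nr4a1. The B cell sum was 725, 669 and 735 CPM of the total at P10 and 915, 781 and 790.3 at P21, without overlap and mostly from Ighm, and none of its 4 tested members was called by edgeR, limma voom or DESeq2, with 1 higher at an unadjusted p under 0.05. Jchain and Fcmr were at 0 in all 6 libraries. The part of these cells in the rise of class II genes was not tested.

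Promoter sequence of the class II genes is shown because most promoters of the list hold a match to the same short motif. The Y box core, written GATTGG, was searched on both strands of RefSeq windows of 250 bases before an annotated start (build GRCm38.p6). The core was present in 10 of 13 windows of the list (76.9%) and in 14.6% of all 32851 windows. Its share was 18.7% in windows of tested genes and 18.9% in windows of genes that rose. The core contains the CCAAT motif on the other strand, so matches to these motifs overlap. The windows below are those of H2-Aa, chr17:34287824-34288073 on the minus strand, and of H2-DMb1, chr17:34152941-34153190 on the plus strand, with the match in capitals. The match began 49 bases before the start in H2-Aa and 62 bases before it in H2-DMb1.
H2-Aa: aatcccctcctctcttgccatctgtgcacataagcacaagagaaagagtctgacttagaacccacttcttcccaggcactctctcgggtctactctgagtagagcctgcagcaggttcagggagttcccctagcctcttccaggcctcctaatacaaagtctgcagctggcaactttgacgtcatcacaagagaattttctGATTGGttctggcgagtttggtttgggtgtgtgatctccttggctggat
H2-DMb1: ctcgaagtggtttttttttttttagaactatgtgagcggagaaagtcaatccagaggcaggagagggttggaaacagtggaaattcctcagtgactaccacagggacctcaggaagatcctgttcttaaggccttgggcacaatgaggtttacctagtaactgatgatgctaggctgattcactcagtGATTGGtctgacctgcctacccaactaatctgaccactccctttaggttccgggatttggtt
A match is a description of the letters and does not show that a factor binds there. H2-DMa had a window without a match and another with a match 199 bases before the start, and the window of Ifi30 held no match. Of the 168 called genes 134 had a window.

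MHC class I genes moved less. H2-D1, a classical class I heavy chain, had 2363, 2748 and 2687 CPM at P10 and 4064, 3649 and 3247 at P21 (0.49 ± 0.10 SE, edgeR adjusted p = 0.0373). Tap1, a subunit of the peptide transporter, had 66.3, 45.3 and 57.7 and then 111, 111 and 99.5 CPM (0.92 ± 0.20 SE, edgeR adjusted p = 0.0413). Tapbp, which bridges the transporter to the class I molecule, had 271, 303 and 316 and then 659, 435 and 544 CPM (0.88 ± 0.15 SE, edgeR adjusted p = 0.0155). These 3 of 17 tested members rose, against 0.96% of all tested genes, and none fell. The median was 0.56, and all 17 changes were above 0. B2m, the light chain, had 3845 ± 699.8 and 4116 ± 406 CPM, with overlapping ages. The class I count was 0, 0 and 1 without P10 replicates 1, 2 and 3, 1, 2 and 2 without P21 replicates 1, 2 and 3, and 1 on library totals.

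Surface proteins that tune T cells also rose in part. Icosl, the ligand of ICOS on T cells, had 11.2, 7.86 and 15.5 CPM at P10 and 37.4, 43.1 and 46.2 at P21 (1.87 ± 0.31 SE, edgeR adjusted p = 0.0114). Tnfsf9, the 4-1BB ligand, had 110.5, 87.99 and 75.3 and then 210.3, 229 and 211 CPM (1.25 ± 0.25 SE, edgeR adjusted p = 0.0326). Vsir, which encodes the inhibitory protein VISTA, had 193, 181 and 220.2 and then 339.7, 328 and 414 CPM (0.86 ± 0.18 SE, edgeR adjusted p = 0.0366). Cd86, a ligand of CD28, had 459 ± 35.5 and 588 ± 126 CPM and overlapped, and Cd274, which encodes PD-L1, had 3.34 ± 2.49 and 17.4 ± 9.67 (2.39, adjusted p = 0.254). Of 10 tested genes of this list 3 rose, against 0.96% of all tested genes, and none fell, with a median of 1.10. That count was 0, 0 and 1 without P10 replicates 1, 2 and 3, 1, 1 and 1 without P21 replicates 1, 2 and 3, and 1 on library totals.

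Of 30 tested interferon-stimulated genes 7 rose, against 0.96% of all tested genes, and none fell. Ifitm3, which blocks virus entry at the endosome, had 227, 251 and 203 CPM at P10 and 759, 634 and 661 at P21. Irf7, the transcription factor that amplifies type I interferon, had 35.5, 38.5 and 33.99 and then 214, 98.3 and 142 CPM, a 4.21-fold difference with a wide spread at P21 (2.07 ± 0.32 SE, edgeR adjusted p = 0.0073). Ifit3b, of the family that binds foreign RNA, had 4.82, 6.06 and 6.92 and then 29.04, 50.7 and 43.4 CPM (2.79 ± 0.50 SE, edgeR adjusted p = 0.0194). Ifi204 and Ifi207 belong to a family of DNA-binding proteins with near-identical members. Ifi207 had 133, 176 and 196 and then 366, 578 and 566 CPM (1.58 ± 0.28 SE, edgeR adjusted p = 0.0194), and Ifi204 had 106 ± 19.4 and 205 ± 9.83 (0.95 ± 0.15 SE, edgeR adjusted p = 0.00934). Oasl1, outside the list, had 3.35, 8.35 and 8.34 and then 36.9, 47.7 and 56.1 CPM (2.82 ± 0.52 SE, edgeR adjusted p = 0.0231). Oas3, an RNA-sensing synthetase, and Trim30a were the remaining 2 members that rose. Oas3 was near 0 at P10, with 0.031, 0.135 and 0.102 CPM, and had 10.9, 11.2 and 11.1 at P21. The median log2 change was 1.02, with 28 changes above 0 and 2 below.

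Several typical members had P21 levels above P10 without passing, such as Ifit1 (16 ± 5.73 and 86.5 ± 21.9 CPM; adjusted p = 0.0684), Isg15 (adjusted p = 0.114) and Rsad2, whose ages overlapped (adjusted p = 0.361). The number of interferon-stimulated genes that rose was 1, 3 and 4 without P10 replicates 1, 2 and 3 and 6, 4 and 7 without P21 replicates 1, 2 and 3.

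The interferon-stimulated response element core, written as GAAA repeated after any 2 bases and searched on both strands, was in 13 of 26 promoter windows of the interferon list (50%), in 6.76% of the windows of genes that rose and in 2.98% of all windows. The window of Ifit3b, chr19:34607707-34607956 on the plus strand, held 2 matches on the minus strand, and that of Ifi207, chr1:173741810-173742059 on the minus strand, held 1 on its own strand. Capitals mark them.
Ifit3b: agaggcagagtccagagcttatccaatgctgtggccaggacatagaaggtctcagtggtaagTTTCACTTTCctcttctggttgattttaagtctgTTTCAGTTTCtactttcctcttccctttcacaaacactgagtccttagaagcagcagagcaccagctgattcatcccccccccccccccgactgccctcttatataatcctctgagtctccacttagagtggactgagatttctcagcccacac
Ifi207: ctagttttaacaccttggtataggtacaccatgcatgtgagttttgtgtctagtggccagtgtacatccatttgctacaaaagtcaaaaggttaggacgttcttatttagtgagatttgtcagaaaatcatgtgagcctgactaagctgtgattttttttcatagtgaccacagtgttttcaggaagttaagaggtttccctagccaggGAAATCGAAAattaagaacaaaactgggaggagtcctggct
The matches in Ifit3b began 188 and 154 bases before the start, and the match in Ifi207 began 41 bases before it. The window of Oas3 and a window of Trim30a also held a match. The windows of Ifitm3 and Irf7 and another window of Trim30a held none.

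Of 19 tested complement genes 7 rose, against 0.96% of all tested genes, and none fell. The 7 included all 3 chains of C1q, the molecule that starts the classical pathway. C1qa had 2888, 3589.8 and 3384 CPM at P10 and 5026, 5193 and 5298 at P21 (0.65 ± 0.10 SE, edgeR adjusted p = 0.00752). C1qc had 5184, 6283 and 5936 and then 8689, 7901 and 7619 (0.48 ± 0.11 SE, edgeR adjusted p = 0.0459), and C1qb rose by 0.72. The P21 libraries of C1qa lay close together and all above P10. C4b, the next component of that pathway, had 5.96, 9.29 and 18.9 and then 75.1, 61.4 and 117 CPM (2.90 ± 0.51 SE, edgeR adjusted p = 0.0182). Cd55, a membrane protein that breaks up the convertases, had 17.6, 20.3 and 23.8 and then 105, 97.5 and 95.9 CPM (2.27 ± 0.34 SE, edgeR adjusted p = 0.00597). Cfp, which encodes properdin, the stabiliser of the alternative pathway, had 733, 711 and 717 and then 1193, 1286 and 1273 CPM. C5ar1, the receptor for the fragment C5a, had 831, 880.5 and 980.4 and then 1483, 1944 and 1734 CPM (0.94 ± 0.14 SE, edgeR adjusted p = 0.00461). C3ar1, the receptor for C3a, had 748 ± 50.5 and 879.6 ± 210.3 CPM and overlapped. The median of the list was 0.82, with 17 changes above 0 and 2 below. Fibroblasts also express C4b, and the fibroblast marker sums given below overlapped between the ages. The part of fibroblasts in the rise of C4b was not tested. The count was 3, 5 and 6 without P10 replicates 1, 2 and 3 and 6, 6 and 6 without P21 replicates 1, 2 and 3. Of the C1q chains, C1qb kept its call without each of the 6 libraries and C1qa lost it without P10 replicate 1. C1qc lost its call whichever 1 of the 6 was left out, and on library totals.

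Among 26 markers of border-associated macrophages 5 rose, against 0.96% of all tested genes, and none fell, with a median of 0.65. Cbr2, a carbonyl reductase, had 1256, 1399 and 1546 CPM at P10 and 3055, 2764 and 3235 at P21. Clec10a, a lectin for galactose-type sugars, had 279, 333 and 335 and then 823, 859.5 and 641 CPM (1.29 ± 0.16 SE, edgeR adjusted p = 0.00206), and its close relative Mgl2, whose reads it may share, had 296, 255 and 251 and then 893, 1027 and 1202. F13a1, a clotting factor subunit made by these cells, had 1715, 1673 and 2109 and then 3742, 2994 and 4033 CPM (0.97 ± 0.19 SE, edgeR adjusted p = 0.0309). Timd4, a receptor for phosphatidylserine on dying cells, had 21.6, 26.4 and 24.7 and then 83.4, 56.7 and 103 CPM (1.74 ± 0.35 SE, edgeR adjusted p = 0.032). Siglec1, a sialic acid receptor, had 57.5, 48.1 and 64.5 and then 120.2, 148 and 272 CPM, with P21 replicate 3 far above the other 2 (1.67 ± 0.37 SE, edgeR adjusted p = 0.0486). Lyve1, the hyaluronan receptor, had 371, 449 and 421 and then 555, 608 and 1048 CPM and was not called (0.83, adjusted p = 0.293). Pf4 and Ms4a7 had close means at both ages, 3978 ± 818 and 3832 ± 581 CPM for Pf4 and 1820.0 ± 327 and 1817 ± 407 for Ms4a7. The count of rises was 2, 2 and 3 without P10 replicates 1, 2 and 3, 3, 4 and 2 without P21 replicates 1, 2 and 3, and 2 on library totals.

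Genes of adhesion and the vessel interface rose at 2 of 20 tested members, against 0.96% of all tested genes. Vcam1, the adhesion molecule that binds the integrin VLA-4, had 168, 195 and 207 CPM at P10 and 1296, 1992 and 991 at P21. The P21 libraries of Vcam1 were spread widely, yet the lowest of them stood well above the highest of P10. Itgb2, the integrin beta chain of leukocytes, had 165, 125 and 143 and then 237, 257 and 272 CPM (0.82 ± 0.17 SE, edgeR adjusted p = 0.0366). Icam1, a ligand of that integrin, had 159, 168 and 161 and then 574, 347 and 405 CPM and did not pass (1.44, adjusted p = 0.0705). Thbd, which encodes thrombomodulin, a cofactor that turns thrombin against clotting, had 6.298, 29.3 and 35.5 and then 129, 184 and 184 CPM (2.81 ± 0.58 SE, edgeR adjusted p = 0.034). P10 replicate 1 was the lowest for Thbd. Endothelial cells express Vcam1, Icam1 and Thbd too. Endothelial markers summed to 106, 149 and 145 CPM of the total at P10 and 96.9, 96.8 and 64.7 at P21, with Erg and Sox17 at 0 in every P21 library. Of that list 3 members had at least 10 counts in every P10 library and 2 in every P21 library. The part of endothelial cells in the rises of Vcam1 and Thbd was not tested. Of the called genes here Vcam1 alone kept its call without each of the 6 libraries in turn. Itgb2 and Thbd each lost theirs whichever 1 of the 6 was left out.

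**Figure D3:**
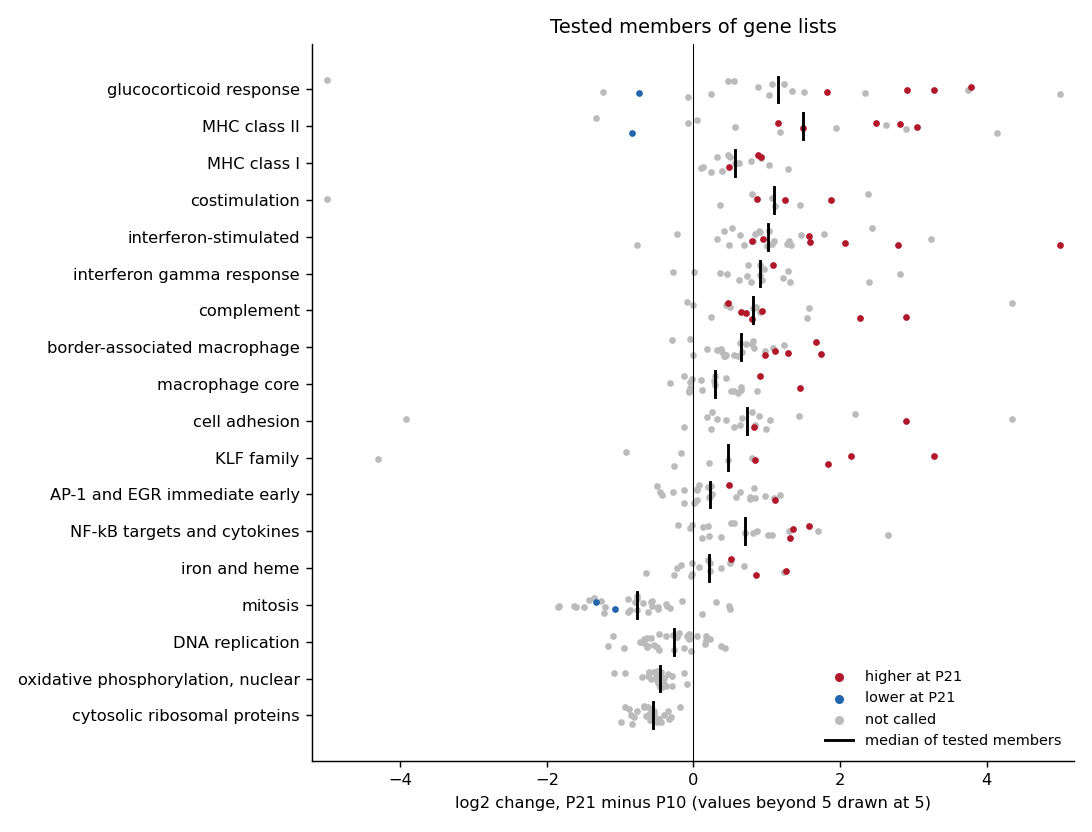
Log2 change from P10 to P21 (horizontal axis) of the tested members of 18 gene lists, with called genes in red (higher) or blue (lower), other members in grey and a black line at the median. The median lies farthest to the right for MHC class II (1.49), and to the left of 0 for the mitosis (-0.77), oxidative phosphorylation (-0.46) and ribosomal protein (-0.56) lists.

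Transcription factors of the KLF family rose at 4 of 11 tested members, against 0.96% of all tested genes, and fell at none. Klf2, a factor that restrains inflammatory genes in myeloid cells, had 98.1, 129 and 157 CPM at P10 and 338, 448 and 580.1 at P21. Klf4 had 17.6, 23.7 and 29.97 and then 44.6, 104 and 167 CPM, with P21 replicate 1 well below the other P21 libraries (2.15 ± 0.43 SE, edgeR adjusted p = 0.032). Klf6 had 1054, 1051 and 1360.0 and then 1828, 2269.8 and 2089.8 CPM (0.84 ± 0.12 SE, edgeR adjusted p = 0.00342), and Klf9, described above with the steroid genes, is the fourth. Without P10 replicates 1, 2 and 3 the count was 2, 2 and 2, and without P21 replicates 1, 2 and 3 it was 4, 2 and 2.

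Immediate early genes respond within minutes to cell stress and to tissue handling. Of 27 tested members 2 rose, against 0.96% of all tested genes. Btg2, an antiproliferative gene, had 1880.5, 2542 and 2191 CPM at P10 and 5542, 4577 and 4180.1 at P21 (1.11 ± 0.18 SE, edgeR adjusted p = 0.0119). Dusp1, a phosphatase that switches off MAP kinases, had 1897, 2302 and 2302 and then 3215, 2954 and 2946 CPM (0.49 ± 0.10 SE, edgeR adjusted p = 0.0309). Fos had 3932, 4273 and 4698 and then 3714, 3766 and 4372 CPM, and Junb 2359, 2646 and 3102 and then 3493, 2090.0 and 2549. Both overlapped between the ages. The median of the list was 0.22, 0.14 without P10 replicate 1, 0.35 without P21 replicate 1 and 0.06 on library totals. The cAMP response element, written TGACGNCA and searched on both strands, was in 8 of 29 windows of this list (27.6%) and 2.75% of all windows, among them those of Btg2, chr1:134079156-134079405 on the minus strand, and Dusp1, chr17:26508473-26508722 on the minus strand. Both windows are printed with the element in capitals, 166 and 143 bases before the start.
Btg2: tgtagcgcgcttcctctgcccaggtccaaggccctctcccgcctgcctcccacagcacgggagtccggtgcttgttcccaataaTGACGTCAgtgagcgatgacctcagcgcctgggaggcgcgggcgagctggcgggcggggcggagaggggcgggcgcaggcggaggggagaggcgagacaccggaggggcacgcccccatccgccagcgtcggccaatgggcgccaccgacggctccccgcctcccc
Dusp1: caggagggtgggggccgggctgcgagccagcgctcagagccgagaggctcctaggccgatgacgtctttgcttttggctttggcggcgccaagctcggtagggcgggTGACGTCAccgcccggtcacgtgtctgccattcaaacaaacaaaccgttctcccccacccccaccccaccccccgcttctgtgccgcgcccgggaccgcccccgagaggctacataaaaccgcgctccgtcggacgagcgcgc
Dusp1 lost its call without P10 replicate 1, 2 or 3 and without P21 replicate 1 or 2, and Btg2 lost it without P10 replicate 1.

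Of 22 tested NF-kB targets and cytokines 3 rose, against 0.96% of all tested genes, and none fell. The median of the list was 0.70 (0.36 without P21 replicate 3). Il1b, the inflammatory cytokine interleukin 1 beta, had 857, 1034 and 941 CPM at P10 and 2596, 2296 and 2194 at P21, a 2.501-fold difference with no overlap (1.32 ± 0.15 SE, edgeR adjusted p = 0.000795). Socs3, a feedback inhibitor of cytokine receptors, had 293, 329 and 292 and then 881, 552 and 911 CPM (1.36 ± 0.24 SE, edgeR adjusted p = 0.0194). Birc3, an inhibitor of cell death, had 64.2, 79.5 and 88.5 and then 273, 206 and 213 CPM (1.58 ± 0.32 SE, edgeR adjusted p = 0.0326). Tnf had 199 ± 25.1 and 193 ± 47.2 CPM and Nfkbia, the feedback inhibitor of NF-kB, 2298 ± 148 and 2521 ± 277. Neither was called (adjusted p = 0.953 and 0.618). Cd14, the coreceptor for bacterial lipopolysaccharide, had 1935, 2036 and 2047 and then 6977, 4379 and 5061 CPM (1.45 ± 0.30 SE, edgeR adjusted p = 0.034), while Tlr4 and Tlr2 were not called (0.36, adjusted p = 0.56 and 0.07, adjusted p = 0.938). Cd14 lost its call whichever 1 library was left out, and the NF-kB count was 1, 1 and 1 without P10 replicates 1, 2 and 3 and 1, 2 and 2 without P21 replicates 1, 2 and 3.

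The stress-inducible chaperones Hspa1a and Hspa1b were the 2 of 19 heat shock genes that rose, against 0.96% of all tested genes. Hspa1a had 18.6, 11.8 and 11.8 CPM at P10 and 61.2, 178 and 49.8 at P21 (2.77 ± 0.55 SE, edgeR adjusted p = 0.0317), and Hspa1b had 9.09, 4.04 and 5.09 and then 43.4, 120.0 and 20.8 (3.33 ± 0.74 SE, edgeR adjusted p = 0.0486). For both, P21 replicate 2 was the highest. Hspa1a lost its call without P21 replicate 2 or any 1 of the 3 P10 libraries, and Hspa1b lost it without any library but P21 replicate 3. limma voom called neither. The 2 genes are near-identical copies, and their reads may have been split between them.

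Genes for iron and heme handling rose at 3 of 18 tested members, against 0.96% of all tested genes. Trf, the iron carrier transferrin, had 3337, 3955 and 3662 CPM at P10 and 7006, 6359 and 6412 at P21 (0.85 ± 0.13 SE, edgeR adjusted p = 0.00628). Cp, the ferroxidase ceruloplasmin, had 88.7, 89.96 and 136 and then 243, 262 and 249 CPM (1.26 ± 0.23 SE, edgeR adjusted p = 0.0194), and Hfe, a sensor in iron balance, had 516 ± 11.3 and 734 ± 64.9 (0.51 ± 0.11 SE, edgeR adjusted p = 0.0429). The iron exporter Slc40a1 and the heme oxygenase Hmox1 were not called (-0.17, adjusted p = 0.911 and -0.02, adjusted p = 0.997). Gpx3, a secreted glutathione peroxidase, had 512, 520.3 and 567 and then 1416, 1266 and 1258 CPM (1.30 ± 0.19 SE, edgeR adjusted p = 0.00456), and Pltp, a phospholipid transfer protein, had 632 ± 58.1 and 1079.9 ± 65.8 (0.77 ± 0.12 SE, edgeR adjusted p = 0.00628). Without P10 replicates 1, 2 and 3 the iron count was 0, 1 and 2, and without P21 replicates 1, 2 and 3 it was 2, 1 and 3.

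Membrane proteins with several spans rose at 4 of 21 tested members, against 0.96% of all tested genes. Cd81, a tetraspanin, had 178, 147 and 168 CPM at P10 and 386, 617 and 714 at P21 (1.80 ± 0.21 SE, edgeR adjusted p = 0.00142), while Cd9 and Cd63 of the same family were not called (-0.89, adjusted p = 0.31 and -0.30, adjusted p = 0.394). The paired genes Tmem176a and Tmem176b, linked to antigen handling in dendritic cells and macrophages, had 477 ± 34.04 and 773 ± 53.6 CPM (0.70 ± 0.15 SE, edgeR adjusted p = 0.0459) and 1295 ± 72.3 and 2018 ± 155 (0.64 ± 0.12 SE, edgeR adjusted p = 0.0298). The count was 2, 1 and 2 without P10 replicates 1, 2 and 3, 2, 2 and 3 without P21 replicates 1, 2 and 3, and 2 on library totals.

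Some cell division genes fell. Cdca8 and Birc5 encode 2 subunits of the chromosomal passenger complex, which checks how chromosomes attach to the spindle. Cdca8 had 89.6, 67.1 and 67.01 CPM at P10 and 22.9, 29.1 and 37.3 at P21 (-1.32 ± 0.21 SE, edgeR adjusted p = 0.00758), and Birc5 had 109, 120.0 and 93.1 and then 45.03, 52.1 and 55.8 (-1.07 ± 0.22 SE, edgeR adjusted p = 0.0326). Cks1b, a small subunit of cyclin-dependent kinases that is outside the list, had 71.3, 78.97 and 53.1 and then 26.7, 23.8 and 34.1 CPM (-1.27 ± 0.21 SE, edgeR adjusted p = 0.011). Of 34 tested mitosis genes 2 fell, against 0.184% of all tested genes, and none rose. The median was -0.77 (-1.31 without P21 replicate 3). In 16 of these mitosis genes the P21 libraries all lay below P10, against 8.92% of all tested genes. Top2a had 88.3, 89.3 and 73.7 and then 6.796, 29.5 and 134 CPM, and Mki67, which marks cycling cells, 16.2, 22.1 and 21.4 and then 1.56, 19.3 and 32.5 (adjusted p = 0.802 and 0.967). P21 replicate 3 was the highest P21 library in both and lay above every P10 library. None of 32 DNA replication genes was called by edgeR, limma voom or DESeq2, with 2 at an unadjusted p under 0.05 and a median of -0.27 (-0.43 without P21 replicate 3). The mitosis falls numbered 0, 1 and 1 without P10 replicates 1, 2 and 3 and 1, 1 and 6 without P21 replicates 1, 2 and 3.

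The CCAAT box, searched on both strands, was in 25 of 30 windows of the mitosis list (83.3%) and 33.8% of all windows. The window of Cdca8, chr4:124936918-124937167 on the minus strand, is shown because it held 3 matches, all on the strand opposite to the gene, in capitals 85, 51 and 11 bases before the start.
Cdca8: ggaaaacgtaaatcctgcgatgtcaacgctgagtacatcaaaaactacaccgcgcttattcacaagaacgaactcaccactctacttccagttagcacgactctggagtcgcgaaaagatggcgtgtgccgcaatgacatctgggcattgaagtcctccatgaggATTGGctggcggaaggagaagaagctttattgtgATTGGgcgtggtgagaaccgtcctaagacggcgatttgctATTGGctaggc
Birc5 had a window with no match to these letters.

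Nuclear genes of oxidative phosphorylation and of the cytosolic ribosome lay below their P10 levels by small amounts. None of 30 oxidative phosphorylation genes was called by edgeR or limma voom, while DESeq2 called 6 lower. In edgeR 22 were lower at an unadjusted p under 0.05. Over all tested genes, 2145 of 14683 had such a p in either direction, and those lower were not counted apart. In 20 of the 30 the P21 libraries all lay below P10, against 8.92% of all tested genes. All 30 log2 changes were below 0 with a median of -0.46. The median was between -0.56 and -0.36 when 1 library was left out and -0.63 on library totals, where 4 members were called lower. No filter and the replicate block called 1 lower each. Atp5a1, of the ATP synthase, had 1135 ± 166 and 823 ± 156 CPM (-0.46 ± 0.13 SE, edgeR adjusted p = 0.124), and Cox4i1, of cytochrome oxidase, 848 ± 128 and 619.9 ± 116 (-0.45 ± 0.17 SE, edgeR adjusted p = 0.248). Of 30 ribosomal protein genes none was called by edgeR or limma voom, DESeq2 called 4 lower, edgeR on library totals 2, and 16 were lower at an unadjusted p under 0.05 in edgeR. All 30 changes were below 0 with a median of -0.56. In 19 of these ribosomal protein genes the P21 libraries all lay below P10, against the same 8.92%. These genes have many processed copies in the genome, so their counts are uncertain. Uqcr10, of the respiratory chain, and Atp5g3, of ATP synthase, are outside the lists and were chosen after their values were seen. Both were called lower (-0.84 ± 0.19 SE, edgeR adjusted p = 0.0459 and -0.85 ± 0.16 SE, edgeR adjusted p = 0.0282). Rps15, a cytosolic ribosomal protein gene outside the lists, was called lower too. Chchd10, a mitochondrial protein, had 23.7, 19.8 and 19.03 and then 3.42, 1.88 and 3.56 CPM (-2.82 ± 0.54 SE, edgeR adjusted p = 0.0282), and Ptcd3, of the mitochondrial ribosome, 32.3, 46.7 and 45.99 and then 20.3, 11.6 and 18.8 (-1.30 ± 0.26 SE, edgeR adjusted p = 0.0309). Each of these called genes lost its call without P10 replicate 1 or 2 and without P21 replicate 2.

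Other genes that fell had varied roles. Hgsnat, a lysosomal enzyme of heparan sulfate breakdown, had 475, 605 and 547 CPM at P10 and 249, 215 and 262 at P21, a 2.24-fold fall (-1.16 ± 0.13 SE, edgeR adjusted p = 0.000795). Fabp5, a fatty acid carrier, had 85.1, 97.4 and 47.7 and then 30.6, 20.8 and 15.2 CPM (-1.79 ± 0.31 SE, edgeR adjusted p = 0.0178). Bmp2, a growth factor of the TGF beta family, had 185, 213 and 260.1 and then 75.6, 79.2 and 128 CPM (-1.22 ± 0.26 SE, edgeR adjusted p = 0.0429). Gpr183, an oxysterol receptor that guides immune cells, had 277, 277 and 231 and then 99.1, 136 and 118 CPM (-1.15 ± 0.26 SE, edgeR adjusted p = 0.0486), and Sox4, a transcription factor, 37.1, 46.01 and 73.9 and then 20.97, 18.5 and 21.8 (-1.36 ± 0.27 SE, edgeR adjusted p = 0.0309). Hgsnat alone of these kept its call without each of the 6 libraries.

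Some of the falls were in markers of other cells. Acp5, the tartrate-resistant phosphatase of osteoclasts, had 397, 254 and 238 CPM at P10 and 101, 27.3 and 31.3 at P21 (-2.48 ± 0.55 SE, edgeR adjusted p = 0.0458). It was the 1 of 13 tested osteoclast markers called lower, against 0.184% of all tested genes, and none was called higher. The median of the list was -2.41 (-1.31 without P10 replicate 1 and -3.11 without P21 replicate 1). The call of Acp5 held without P21 replicate 1 and was lost without any other library. Ctsk, the collagen-cleaving protease of that cell, had 734, 286 and 564 and then 24.98, 48.1 and 20.5 CPM (-4.08, adjusted p = 0.0562), and Ocstamp, needed for its fusion, 22.1 ± 5.34 and 0.99 ± 1.09 (-4.47, adjusted p = 0.0777). The list's summed level was 2854, 1626 and 2408 CPM of the total at P10 and 966, 754 and 941 at P21, with no overlap, and Calcr was at 0 in every P10 library. None of 11 mast cell markers was called by edgeR or limma voom, DESeq2 called 3 lower and 1 higher, and 4 were lower and 1 higher at an unadjusted p under 0.05, with a median of -4.44. The mast cell proteases Cma1 and Tpsb2 had 109.7, 66.2 and 82.98 and 114, 51.04 and 74.6 CPM at P10 and 4.69, 4.07 and 2.31 and 3.57, 0.104 and 3.32 at P21. Their list summed to 630.2, 398 and 468 CPM of the total and then 292, 417 and 273, with overlap, the P21 sums being mostly Srgn, which macrophages also express. Hbb-bs, a beta globin of red cells, had 3.96, 21.4 and 59.3 and then 0.782, 0.209 and 1.78 CPM (-4.91 ± 0.95 SE, edgeR adjusted p = 0.0287), on an erythroid sum of 112, 132 and 252 and then 109, 97.6 and 74.6. Fibroblast markers summed to 4236, 1313 and 3972 CPM of the total at P10 and 3321, 3184 and 2119 at P21, with overlap. None of the 19 tested was called by edgeR, limma voom or DESeq2, and 1 was lower at an unadjusted p under 0.05. Hbb-bs lost its call without P10 replicate 2 or 3 and without P21 replicate 1 or 2. The part of these cells in the falls of Acp5 and Hbb-bs was not tested.

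**Figure D4:**
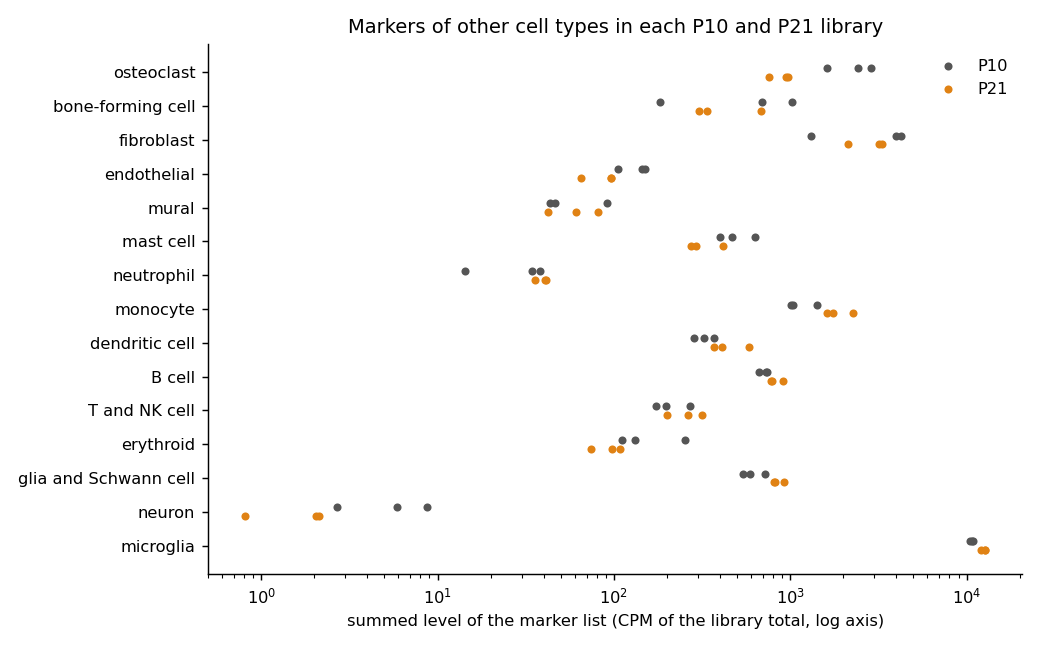
Summed level of the marker lists of 15 other cell types (horizontal log axis, CPM of the library total) in each P10 library (grey) and P21 library (orange). Osteoclast sums are 1626 to 2854 at P10 and 753.7 to 965.7 at P21, while fibroblast and mast cell sums overlap.

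Genes that rose across birth, from E14.5 to P3, and again at P21 were counted from 2 comparisons that share no library. In P3 against E14.5, 302 genes changed (2.06%) and 245 rose (1.67%). Of the 141 genes that rose from P10 to P21, 35 were among them, which is 24.8% of the former and 14.3% of the latter. They included 4 of the 5 class II genes (H2-Aa, H2-DMa, H2-DMb1 and Cd74), 4 of the 7 complement genes (C1qa, C1qc, Cfp and Cd55), all 3 iron genes (Cp, Hfe and Trf), both adhesion genes (Vcam1 and Itgb2) and 2 of the 7 interferon-stimulated genes (Irf7 and Ifitm3). None of the 4 glucocorticoid-responsive genes that rose at P21 was called from E14.5 to P3. Fkbp5 stood at 24.3, 35.1 and 56.01 CPM in the E14.5 libraries and 20.2, 18.8 and 19.9 in those of P3 (log2 change -0.97, adjusted p = 0.546). Errfi1 had a log2 change of -0.25 (adjusted p = 0.76). Klf9 stood at 1.74, 0.733 and 0.835 and then 0.723, 6.36 and 6.401 (2.02, adjusted p = 0.151), and Tsc22d3 had 126, 113 and 102 and then 217, 235 and 209 (0.96, adjusted p = 0.0609). Dusp1, F13a1 and Skil, a regulator of TGF beta signalling, rose at P21 but fell at birth, and Hgsnat fell at P21 but rose at birth. The E14.5 libraries of F13a1 stood at 4736, 6035 and 6239.8 CPM and those of P3 at 3148, 3084 and 2818. No gene fell in both. At E14.5, 2 libraries had 1648 and 1359 counts of Xist, against at most 2 in the P3, P10 and P21 libraries. The overlap was 9, 16 and 18 without P10 replicates 1, 2 and 3, 18, 20 and 27 without P21 replicates 1, 2 and 3, and 19 on library totals.

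Levels over all 5 ages differed in shape among the genes that rose. Comparisons of P10 with P3 and of P56 with P21 share libraries with the one described, so each gene's own values are given. The former called 59 genes (0.402%), 9 of them lower (0.0613%), and the latter 40 (0.272%). From the youngest age to the oldest, Cd74 had mean levels of 53.5 ± 2.47, 180.0 ± 44.5, 747 ± 271, 4219 ± 588 and 15253 ± 1446 CPM, and each step passed its own test (adjusted p = 0.00203, 0.00255, 0.000589 and 0.00746). H2-DMa had 9.93 ± 1.07, 22.1 ± 4.29, 55.2 ± 7.41, 155 ± 12.4 and 537 ± 119 CPM over the same ages. Tsc22d3 had 220.1 ± 13.2 CPM at P3 (P10 against P3, adjusted p = 0.987) and 1472 ± 509.5 at P56 (P56 against P21, -0.22, adjusted p = 0.811). Errfi1 had 75.7 ± 11.4 CPM at P3 and 221 ± 69.1 at P56. Cd81 had 291 ± 25.1 CPM at E14.5, above its P10 level, and 1566 ± 395 at P56 (1.45, adjusted p = 0.00979). Cbr2 went from 19.3 ± 0.796 CPM in the embryo to 622 ± 82.3 at P3, and had 2769.6 ± 163 at P56 (P56 against P21, -0.12, adjusted p = 0.75). Il1b had 453 ± 13.3 CPM at P3 and 1621 ± 391 at P56 (-0.54, adjusted p = 0.149). Cdca8 had 161 ± 29.8 CPM in the embryo, 111 ± 14.1 at P3 and 12.4 ± 0.949 at P56, the lowest of the 5 ages. The age P56 and its sequencing project cannot be told apart.

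**Figure D5:**
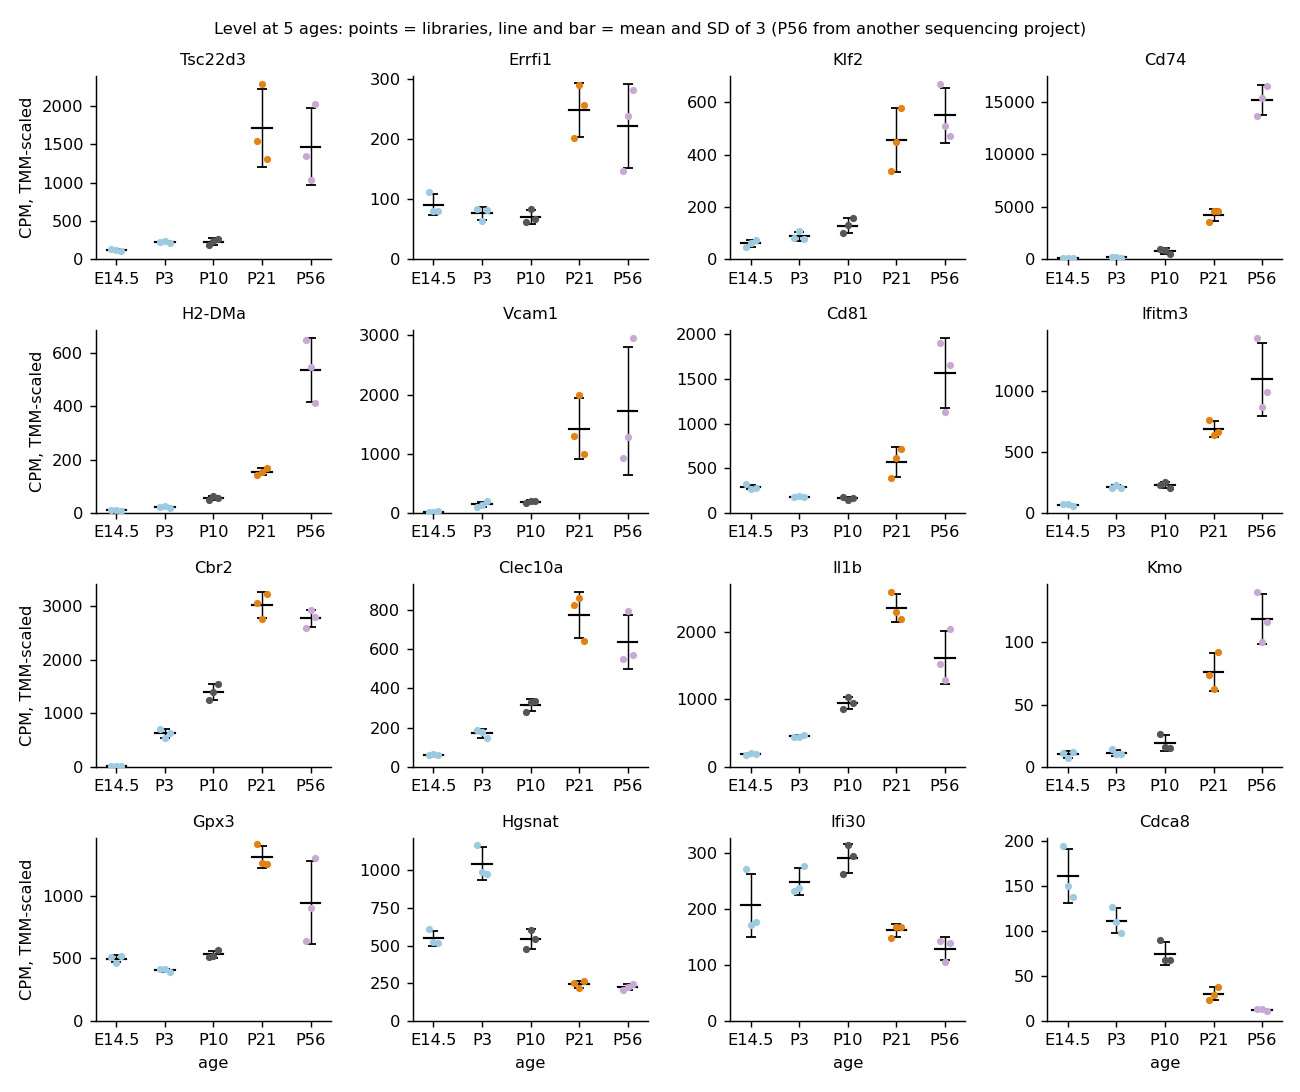
TMM-scaled CPM (vertical axes from 0) of 16 genes called between P10 and P21 at each of 5 ages, with 1 point per library and the mean and SD of 3. The P21 and P56 points overlap for Tsc22d3, Errfi1 and Vcam1, the P56 points of Cd74 (mean 15253) and H2-DMa (mean 537) lie above all others, and Hgsnat (mean 1044) stands highest at P3.

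How far single calls rest on 1 library was counted for all 168. Each of 25 genes kept its call without any 1 of the 6 libraries, among them C1qb, C5ar1, Cbr2, Cd72, Cd74, Cd81, Cfp, Clec10a, Errfi1, Gpt2, Gpx3, H2-DMa, Herpud1, Ifitm3, Il1b, Klf2, Klf6, Kmo, Mgl2, Neurl3, Rab7b, Tsc22d3 and Vcam1, which rose, and Hgsnat, which fell. Of the 25, all but C1qb and Klf6 also kept it in each of 12 other fits with changed scaling, filter, libraries or tool. Every one of the 168 kept its direction in all 18 alternative fits. The other 143 were called with all libraries but lost the call in at least 1 fit with 5 of the 6, most often without P10 replicate 1, where 29 of the 168 remained called.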

How the data were processed

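RNA of sorted dural macrophages was sequenced in 15 libraries, and the authors deposited 1 table of raw read counts per gene for all of them. Per the submitters' processing notes the tools were bcl2fastq 2.18, STAR 2.7.8a and featureCounts 2.0.2, without their roles. The genome build and the rules for strand and for reads that map to several places are not given in the sources used here. Of 53546 gene symbols, 93.5% match GENCODE M21. The labels mention no molecular identifiers, so counts can include PCR copies.

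Groups followed the labelled ages, and every column was matched to its library by name. With edgeR 4.0.16 (R 4.3.3), genes were kept by filterByExpr (14683 genes), scaled by TMM and fitted in 1 model over all 15 libraries with 1 mean per age. The quasi-likelihood test with robust estimation gave P21 against P10 and the 3 other steps, with Benjamini-Hochberg adjustment over all tested genes and a threshold of 0.05. Sums of marker lists are counts scaled to a common total (CPM) without TMM. The fit was also run on counts simulated from 1 mean per gene with set changes added at P21. That run is not used as support for any call. Alternatives were other scaling, filters, sets of libraries, a replicate block, thinning to the smallest total, leaving out each library, limma voom (limma 3.58.1) and DESeq2 1.42.0.

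The 12 largest rises and falls among called genes with at least 20 CPM at the higher age and no overlap were named (leaving out predicted genes, pseudogenes, ribosomal and mitochondrial genes), with up to 5 called and 3 uncalled members of each list and 6 genes of macrophage identity. Any other gene named was chosen after its values were seen. The comparison, gene lists and tests were chosen with earlier results of these data known. Promoter windows are RefSeq sequence of 250 bases before annotated starts in GRCm38.p6, matched by symbol and used for names and letters only, not with coordinates of the counts. Results for a few genes are not reported here.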

Additional observations from a re-analysis of the deposited data

How the results depend on the processing

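Of the 168 genes called between P10 and P21 (141 higher, 27 lower), every gene kept its direction in all 18 alternative fits, and 23 kept their call in all of them. The count of calls was 73 (68 higher, 5 lower) in a fit to the 2 ages alone, 326 (245 and 81) with the 12 libraries of the shared project, 261 (206 and 55) with limma voom and 748 (493 and 255) with DESeq2. Of the 168 calls, 55 were kept in the fit to the 2 ages alone. Library totals gave 69 higher and 75 lower, no filter gave 52 lower, and a filter of 5 CPM in 3 libraries gave 42 lower. Leaving out 1 library gave 30 to 171 calls, 27 to 95 of them higher and 3 to 76 lower. Such a fit tests more genes, since the filter then asks for fewer libraries. Apart from these and the replicate block below, the alternatives stayed within 1.5 times of each count. The P3 against E14.5 comparison called 302 genes, 681 in a fit to those ages alone, 825 with DESeq2 and 127 to 198 without 1 library. The 35 genes higher in both comparisons numbered 19 on library totals, 21 in fits to the ages compared, 53 with 12 libraries and 106 with DESeq2.

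With the replicate number as a block over the 12 libraries of the shared project, 258 genes were called (198 higher, 60 lower), against 326 without it. Same-numbered P10 and P21 libraries deviated together with a correlation of 0.0282, 0.0361 and 0.0359, so the numbers were not taken as pairs. Each library correlated best with its own number, which is a hint from the data and not from the design. Total counts of 19029049 to 30614583 per library limit what can be said of genes at a few CPM, and 3 libraries per age limit the rest.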

Other observations

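Of the genes called between P10 and P21, 73 that rose and 18 that fell belonged to none of the gene lists. Those named here were chosen after their values were seen, as a description of what the lists leave out, with Cybb of the macrophage core list beside Ncf1. Cd72, an inhibitory receptor best known from B cells, had 19.7, 10.3 and 15.1 CPM at P10 and 60.2, 93.6 and 72.1 at P21 (2.33 ± 0.31 SE, edgeR adjusted p = 0.00304). The B cell marker sum, given with the class II genes, was also higher at P21, and its part in the rise of Cd72 was not tested. Further immune receptors were Cd300ld (51.95, 70.9 and 89.1 and then 209.9, 217 and 217 CPM), Lilra5 (13.5, 30.7 and 20.7 and then 56.7, 109.8 and 89.8) and Siglece, an inhibitory receptor for sialic acid (48.1, 47.4 and 63.5 and then 129, 83.6 and 108). The adjusted p of these 3 was 0.011, 0.0219 and 0.0365 in edgeR. Lyn, a kinase that acts below such receptors, rose by 0.69 on the log2 scale (adjusted p = 0.0309).

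Among further genes that rose, Alox5, the enzyme that starts leukotriene synthesis, had 31.3, 64.9 and 89.5 CPM at P10 and 184, 145 and 217 at P21 (1.56 ± 0.31 SE, edgeR adjusted p = 0.0317), and Alox5ap, which hands it arachidonic acid, had 114, 107 and 106 and then 228, 211 and 325 (1.22 ± 0.24 SE, edgeR adjusted p = 0.0317). Nlrp3, the sensor of the inflammasome that matures interleukin 1 beta, had 27.7, 30.8 and 51.5 and then 82.9, 175 and 167 CPM (1.95 ± 0.38 SE, edgeR adjusted p = 0.0309). Cgas, the sensor of cytosolic DNA, had 9.002, 3.64 and 8.55 and then 20.2, 30.8 and 24.6 CPM (1.84 ± 0.40 SE, edgeR adjusted p = 0.0417). Ncf1, a subunit of the NADPH oxidase whose catalytic chain is Cybb, had 170.2 ± 38.7 and 345 ± 23.4 CPM (1.02 ± 0.21 SE, edgeR adjusted p = 0.0326), and Cybb had 366 ± 107 and 687 ± 95.1 (0.91 ± 0.20 SE, edgeR adjusted p = 0.0486). Gpt2, the mitochondrial alanine aminotransferase, had 47.6, 46.8 and 48.2 and then 268, 227 and 168 CPM (2.22 ± 0.24 SE, edgeR adjusted p = 0.000742). Herpud1, a gene of the endoplasmic reticulum stress response, had 209, 199.9 and 236 and then 582, 741 and 541 CPM (1.53 ± 0.19 SE, edgeR adjusted p = 0.00206), and Rab7b, a GTPase of late endosomes, had 131, 149 and 158 and then 383, 518 and 380.1 (1.55 ± 0.21 SE, edgeR adjusted p = 0.0031). Gpt2, Herpud1, Rab7b and Cd72 kept their calls without each of the 6 libraries, and the other genes of these 2 paragraphs lost theirs without at least 1.

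Among the falls, Mif, the macrophage migration inhibitory factor, had 54.6, 58.99 and 49.6 CPM at P10 and 32.02, 18.5 and 22.9 at P21 (-1.15 ± 0.21 SE, edgeR adjusted p = 0.0194). C1qbp, a mitochondrial protein first found as a binder of C1q, fell from 193, 149 and 148 to 81.4, 56.4 and 96.3 CPM (-1.07 ± 0.18 SE, edgeR adjusted p = 0.0158), opposite in direction to the C1q chains. Gsto1, a glutathione transferase, had 187 ± 15.2 and 102 ± 11.8 CPM (-0.88 ± 0.14 SE, edgeR adjusted p = 0.00991). None of 18 circadian clock genes was called by edgeR or limma voom, DESeq2 called 1 lower, and 2 were higher and 1 lower at an unadjusted p under 0.05. The time of day of collection is not given in the sources used here.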
